A study of Mus musculus with 14 samples.

Results

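Measured here was the RNA of 10 mouse genes for regulators of G-protein signalling (RGS proteins): Rgs2, Rgs4, Rgs6, Rgs7, Rgs8, Rgs10, Rgs12, Rgs14, Rgs17 and Rgs20. They were chosen by gene symbol from a table of 45802 features, of which 18128 had a value in at least 1 library, and all 10 were among the 10877 genes tested. RNA was sequenced after ribosome depletion from primary cortical neuron cultures of wild-type C57BL/6 mice, kept for 12 days in vitro and treated for 1 h. The 14 libraries formed 5 groups. In the first, 3 libraries came from cultures given 20 µM bicuculline, which blocks GABA-A receptors and raises network activity. Another 3 came from cultures given 100 µM APV, which blocks NMDA receptors, together with 4% by volume of peptides made by the proteasome of the neuronal membrane (NMP peptides). NMP peptides alone at 4% by volume were given in 3, and the same peptides after cleavage with proteinase K (PK-cleaved NMP peptides) at 4% by volume in 3. Cultures given 1% DMSO served as controls, with 2 libraries, replicates 2 and 3. The labels name a DMSO content for the controls only, and APV was never given without peptides, so solvent and APV by itself cannot be told apart from the treatments in the comparisons they enter. The labels do not say whether the replicates were separate cultures or animals, and the p-values may reflect technical spread only.

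A receptor coupled to a heterotrimeric G protein turns on the G alpha subunit by exchanging its GDP for GTP, and the signal lasts until the GTP is hydrolysed. RGS proteins bind active G alpha through their RGS domain and speed up that hydrolysis, which shortens the signal. In cortical neurons they set how long receptors for glutamate, GABA, acetylcholine and monoamines act on potassium channels, calcium channels, adenylyl cyclase and phospholipase C. Rgs2, Rgs4 and Rgs8 encode small members of the R4 subfamily. RGS2 acts best on the Gq class, while RGS4 and RGS8 act on Gi/o and, for RGS4, also on Gq. Rgs6 and Rgs7 belong to the R7 subfamily, whose proteins are stable only as dimers with the G beta subunit Gnb5. Rgs10, Rgs12 and Rgs14 form the R12 subfamily, and RGS12 and RGS14 carry an additional GoLoco motif that binds inactive G alpha i. Rgs17 and Rgs20 belong to the RZ subfamily, which acts on Gz and Gi.

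Promoter sequences are shown for the 3 members whose level differed among the groups, so that the letters upstream of them can be read beside the values. They were taken from RefSeq on GRCm38.p6, in which 8 of the 10 members matched, with 11 promoters between them. Each is the 250 bases before the RefSeq start, written 5′ to 3′ on the gene's own strand, and capitals mark matches to the motifs searched.
Rgs2, chr1:144004150-144004399, minus strand: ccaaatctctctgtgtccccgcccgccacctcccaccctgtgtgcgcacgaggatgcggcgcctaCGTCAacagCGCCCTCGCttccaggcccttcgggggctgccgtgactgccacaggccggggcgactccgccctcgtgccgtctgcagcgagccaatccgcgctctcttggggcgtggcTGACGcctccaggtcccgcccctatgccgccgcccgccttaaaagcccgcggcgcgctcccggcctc
Rgs4, chr1:169747643-169747892, minus strand: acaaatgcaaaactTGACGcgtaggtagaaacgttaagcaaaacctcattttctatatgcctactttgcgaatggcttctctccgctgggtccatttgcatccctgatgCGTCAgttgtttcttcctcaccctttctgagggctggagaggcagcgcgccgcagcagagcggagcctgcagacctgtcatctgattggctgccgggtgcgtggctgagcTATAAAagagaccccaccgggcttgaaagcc
Rgs17, chr10:5922401-5922650, minus strand: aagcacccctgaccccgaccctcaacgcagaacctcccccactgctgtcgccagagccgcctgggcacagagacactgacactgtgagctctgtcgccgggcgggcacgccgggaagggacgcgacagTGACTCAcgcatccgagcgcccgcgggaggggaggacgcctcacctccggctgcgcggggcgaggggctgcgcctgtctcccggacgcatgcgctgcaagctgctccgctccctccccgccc
Both strands were searched for the cAMP response element TGACGTCA, its core TGACG, the AP-1 site TGANTCA, the Egr site GCGNGGGCG, the SRF CArG box and the TATA box TATAAA. The core lies within the full cAMP response element. In Rgs2 the core occurred 2 times, at bases -185 to -181 and -67 to -63 from the start, and the Egr site occurred 1 time, at -176 to -168. In Rgs4 the core also occurred 2 times, at -236 to -232 and -141 to -137, and the TATA box occurred 1 time, at -31 to -26. In Rgs17 the core had no match in this window, and the AP-1 site occurred 1 time, at -122 to -116. Among all 32841 RefSeq promoters of the same length, 17.8% hold the core, 3.9% hold at least 2 copies of it, 4.7% an Egr site, 6.75% an AP-1 site and 12.4% a TATA box. The full cAMP response element (1.55% of promoters) and the CArG box (1.47%) matched in none of the 11 promoters of the members. Among the other members, the core matched in 1 promoter of Rgs8 and in 1 of Rgs12, where an AP-1 site also matched. These matches are a description of letters and were not tested for binding.

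Values are quantile-normalised log signals. No label states the log base, and base 2 was inferred from the values with exon lengths, so every fold and antilogged level given here rests on that inference. Read as base 2 and antilogged, the values behave as levels per length of transcript, and members are set side by side on that reading. The base and this reading come from the same sums over exon lengths. Neither was checked apart from the other, and the order of the members rests on both. In each library between 15824 and 16231 features had a value, and the read depth is unknown. The 5 general neuronal markers summed to an antilogged signal of 895 to 1214 over the libraries, against 246 to 322 for the 7 astrocyte markers, 118 to 176 for the 8 oligodendrocyte lineage markers and 0.524 to 0.901 for the 6 microglia markers. Of the microglia markers, Tmem119 had a value in 5 of the 14 libraries and P2ry12 in 10. Of the 6 endothelial and mural markers, Cldn5 had a value in 2 libraries. By Gfap, an astrocyte gene, 4 libraries were highest: bicuculline replicate 2 (4.18), NMP peptides replicate 3 (4.15), PK-cleaved NMP peptides replicate 3 (3.97) and DMSO replicate 2 (4.13). Bicuculline replicate 3 followed at 3.47, and the next highest had 2.87, so the cut after 4 is a choice. The other astrocyte markers did not set these 4 apart. Slc1a2 had 5.15, 5.23, 5.23 and 5.35 in them, in the same order, and 5.13 to 5.78 in the other libraries. Results that change without these 4 are given beside them. In bulk cultures, fewer cells of a type and less RNA per cell cannot be told apart.

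Rgs4 had the highest level of the family, with a mean of 6.19 over the 14 libraries and a range of 5.26 to 7.59. It ranked 774 of the 10877 genes tested. Rgs2 averaged 4.37 (3.31 to 6.01) and Rgs7 averaged 4.36 (3.94 to 4.57). Rgs4 lay above Rgs2 in 14 of 14 libraries, by 1.81 ± 0.16 (SD, n = 14), whereas the order of Rgs2 and Rgs7 differed between groups. Rgs2 lay above Rgs7 in 6 of 14 libraries, namely all those with bicuculline and with NMP peptides alone. It lay below Rgs7 in every library with PK-cleaved NMP peptides, NMP peptides plus APV or DMSO. Rgs17 followed at 3.45 (3.19 to 3.88) and lay below Rgs7 in all 14 libraries. Rgs10 averaged 3.24 (3.06 to 3.47), below Rgs17 in 12 of 14 libraries by 0.21 ± 0.29 (SD, n = 14), which is within the spread. The remaining 5 members formed a close group, all of them below Rgs10 on average. Rgs8 averaged 2.64 (2.23 to 2.83), Rgs12 2.59 (2.41 to 2.70), Rgs6 2.58 (2.37 to 2.86), Rgs14 2.51 (2.21 to 2.81) and Rgs20 2.35 (2.09 to 2.56). Rgs10 lay above Rgs8 in 14 of 14 libraries, while no neighbouring pair among these 5 kept one order in all libraries. Exons of Rgs6, Rgs8, Rgs12 and Rgs20 overlap those of genes on the opposite strand in GENCODE M21 (Gm29530, Gm29529, Gm43791, and Gm17101 with Atp6v1h for Rgs20). The strand setting of the counting is not given in the sources used here, so reads of these pairs cannot be told apart.

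**Figure D1:**
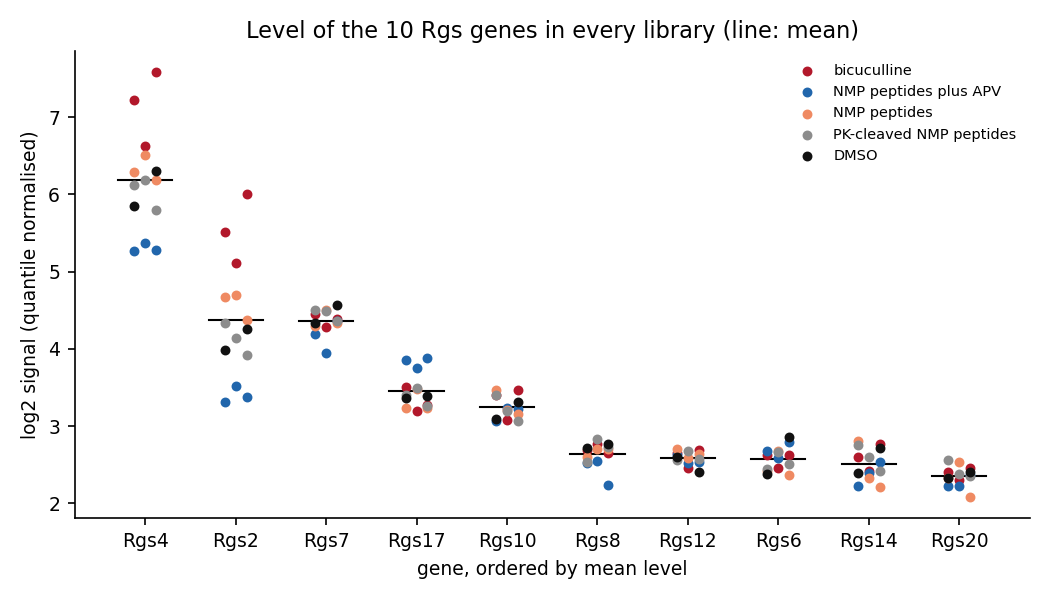
The log2 signal (vertical axis, quantile normalised) of the 10 Rgs genes in each of the 14 libraries, with genes ordered by mean from left to right, points coloured by group and a line at the mean over all libraries. Rgs4 stands highest at a mean of 6.19, and Rgs2 and Rgs4 spread over more than any other member, while the 5 lowest genes lie between 2.09 and 2.86.

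Taking the 5 groups at once, 3 of the 10 members differed among the group means (moderated F test of limma, adjusted over all genes tested): Rgs2 (adjusted p = 0.00013), Rgs4 (adjusted p = 0.000969) and Rgs17 (adjusted p = 0.0306). The background for this test was 179 of 10877 genes, or 1.65%. The group means of Rgs2 spanned 2.14 on the log2 scale and those of Rgs4 spanned 1.84, both highest with bicuculline and lowest with NMP peptides plus APV. Those of Rgs17 spanned 0.51 in the other order, highest with NMP peptides plus APV. The group means of the other 7 members spanned 0.13 (Rgs12) to 0.30 (Rgs8), with adjusted p-values in the same limma F test of 0.552 for Rgs8, 0.613 for Rgs7 and 0.938 to 0.97 for Rgs6, Rgs10, Rgs12, Rgs14 and Rgs20. Rgs2 and Rgs4 were called in this test under every setting run. Rgs17 was not called with a block for the replicate number, without the 4 libraries with high Gfap, or without bicuculline replicate 3, NMP peptides replicate 1 or 3, or any single library of the NMP peptides plus APV and DMSO groups.

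**Figure D2:**
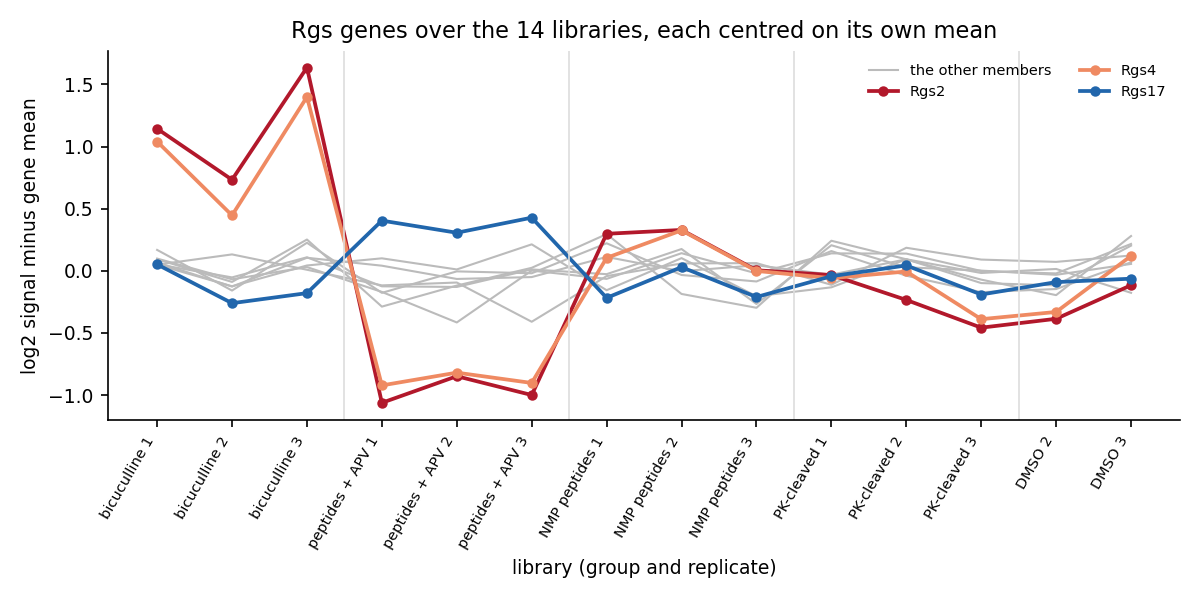
The log2 signal of each Rgs gene minus its own mean (vertical axis) in the 14 libraries (horizontal axis, by group and replicate, with thin lines between groups). Rgs2 and Rgs4 run together, highest in bicuculline replicate 3 and lowest in the NMP peptides plus APV libraries, where Rgs17 is highest (up to 0.43), and the other 7 members stay between -0.42 (Rgs7, NMP peptides plus APV replicate 2) and 0.30 (Rgs14, NMP peptides replicate 1).

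Rgs2 and Rgs4, the R4 members with the highest levels, rose with bicuculline. Rgs2 had log2 signals of 5.52, 5.11 and 6.01 in the bicuculline libraries, against 3.99 and 4.26 in the DMSO libraries. Every bicuculline library lay above both DMSO libraries, and bicuculline replicate 2, one of the 4 with high Gfap, was the lowest of its group. The difference was 1.42 (SE 0.20), or 2.68-fold (limma adjusted p = 0.00217). Rgs4 had 7.23, 6.63 and 7.59 with bicuculline, against 5.86 and 6.31 with DMSO. Again the groups did not overlap, and the difference was 1.07 (SE 0.21), or 2.10-fold (limma adjusted p = 0.0406). These 2 of 10 members were called higher and 0 lower, where the background was 0.469% of all genes tested called higher and 5.81% with bicuculline libraries above those of DMSO. The other 8 members differed from DMSO by -0.08 to 0.12, each with overlapping libraries and a limma adjusted p of 0.997. The 95% interval of the difference was -0.32 to 0.17 for Rgs7 and -0.27 to 0.20 for Rgs8, the third R4 member, so changes of the size seen in Rgs2 lay outside it. The median over the 10 members was 0.03, beside -0.03 over all genes tested.

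The call of Rgs2 against DMSO was lost without DMSO replicate 2 (1.29, limma adjusted p = 0.059) and with only the 2 compared groups in the fit (adjusted p = 0.098). The call of Rgs4 lay nearer the threshold. It was kept without bicuculline replicate 2 (1.33, limma adjusted p = 0.000651) and without PK-cleaved NMP peptides replicate 3 (adjusted p = 0.0436), and was lost without any other single library. The adjusted p was 0.147 and 0.133 without bicuculline replicates 1 and 3, 0.574 and 0.0712 without DMSO replicates 2 and 3, and 0.0518 to 0.0709 without any one of the other 8. It was also lost with a block for the replicate number (adjusted p = 0.114), without the variance trend (0.0719) and with only the 2 compared groups in the fit (0.565). Without the 4 libraries with high Gfap, a fit that keeps 1 DMSO library, Rgs2 differed by 1.51 (limma adjusted p = 0.00341) and Rgs4 by 1.10 (adjusted p = 0.00696). Npas4, Fos, Arc and Egr1, index genes of neuronal activity, were all called higher with bicuculline than with DMSO, by 2.34 (Egr1) to 4.33 (Npas4) on the log2 scale.

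**Figure D3:**
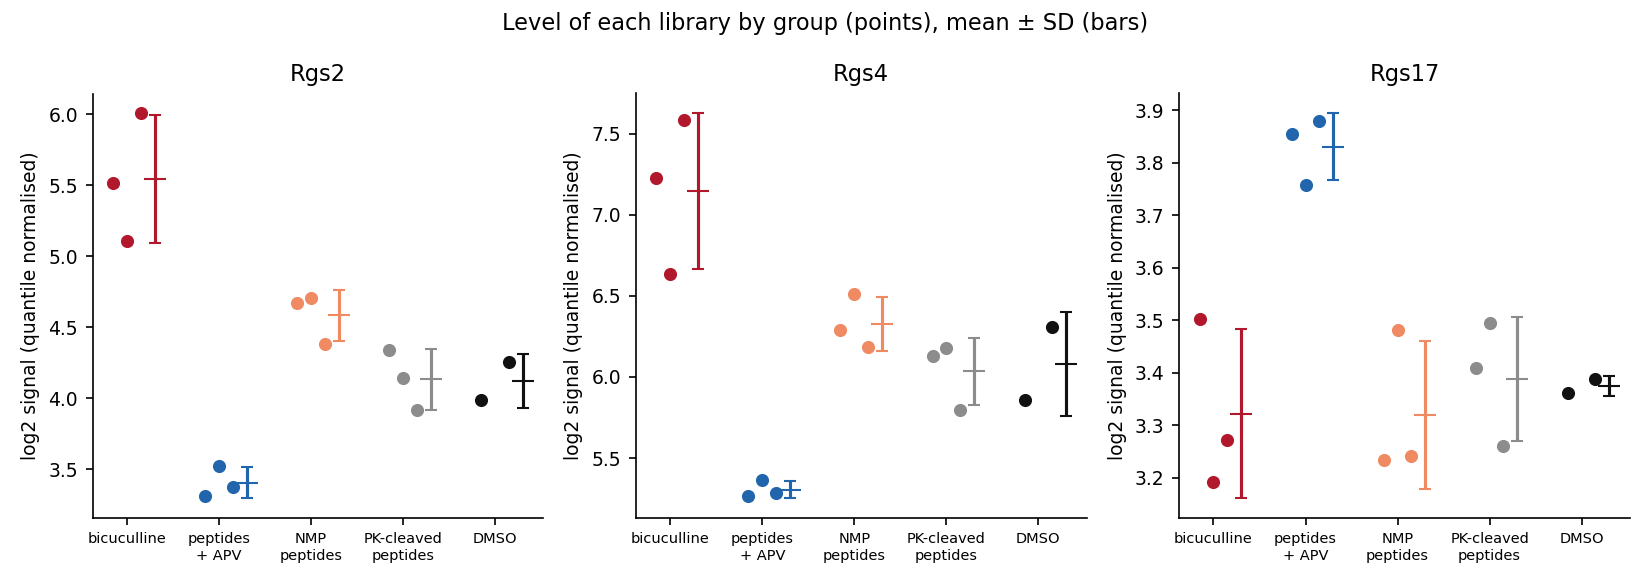
The log2 signal of Rgs2, Rgs4 and Rgs17 in each library (points) by group, with the mean and SD of each group as a bar beside its points (n = 3, and 2 for DMSO). Rgs2 and Rgs4 are highest with bicuculline and lowest with NMP peptides plus APV, at 3.31 to 3.53 for Rgs2, and Rgs17 is highest with NMP peptides plus APV, at 3.76 to 3.88.

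NMP peptides alone gave no called member. Rgs2 had 4.67, 4.70 and 4.38 with NMP peptides, against 4.34, 4.14 and 3.92 with PK-cleaved NMP peptides and 3.99 and 4.26 with DMSO. The peptide libraries of Rgs2 all lay above those of both other groups. Within replicate numbers, Rgs2 was above its PK-cleaved library by 0.33, 0.56 and 0.46. The difference was 0.45 (SE 0.18) from PK-cleaved NMP peptides (limma unadjusted p = 0.0245, adjusted p = 1) and 0.46 (SE 0.20) from DMSO (unadjusted p = 0.0374, adjusted p = 0.971). Rgs4 had 6.29, 6.51 and 6.19 with NMP peptides, against 6.13, 6.18 and 5.80 with PK-cleaved NMP peptides and 5.86 and 6.31 with DMSO. Its peptide libraries lay above the cleaved ones, by 0.16, 0.33 and 0.39 within replicate numbers, and overlapped those with DMSO. Its difference was 0.29 (SE 0.19) from PK-cleaved NMP peptides and 0.25 (SE 0.21) from DMSO (limma adjusted p = 1 and 0.971). The limma test called 0 of 10 members in each comparison, with 1 at an unadjusted p under 0.05, Rgs2. The background was 0.0827% of genes called higher against PK-cleaved NMP peptides and 0.0184% against DMSO. It was 1.65% and 2.02% at the unadjusted threshold, and 2.48% and 4.28% with all peptide libraries above the others. The other 8 members differed by -0.14 to 0.05 from PK-cleaved NMP peptides and by -0.13 to 0.13 from DMSO. Both comparisons use the same peptide libraries. In both, Npas4 and Fos were the 2 of 4 index genes called higher. With the replicate number as a block, which pairs NMP peptides with PK-cleaved NMP peptides in these data, still 0 members were called between them (Rgs2 0.45, SE 0.17, limma adjusted p = 1).

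The PK-cleaved peptides gave values close to those of DMSO. The 10 members differed from DMSO by -0.08 (Rgs6) to 0.10 (Rgs12), with 6 above 0 and 4 below and libraries overlapping in every member. Rgs2 differed by 0.01 (SE 0.20), with a 95% interval of -0.42 to 0.44, and Rgs4 by -0.05 (SE 0.21), with an interval of -0.50 to 0.41. The limma test called 0 members and 0 genes in all (background 0%), with 0 members and 114 genes (1.05%) at an unadjusted p under 0.05. The intervals are wide enough to hold a difference such as that of NMP peptides from DMSO in Rgs4.

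**Figure D4:**
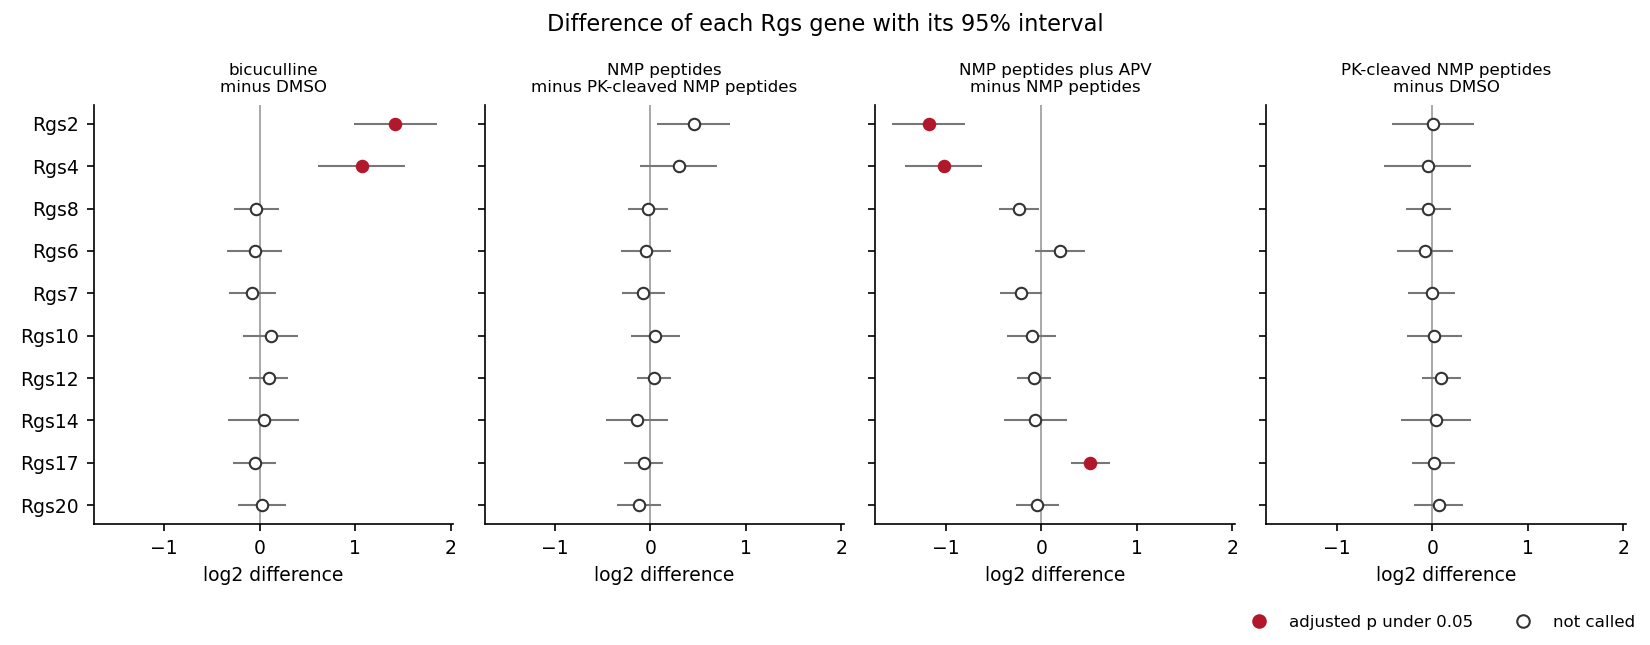
The log2 difference (horizontal axis) of the 10 Rgs genes, ordered by subfamily from top to bottom, in 4 comparisons, with the 95% interval of limma as a line and filled points for an adjusted p under 0.05. Rgs2 and Rgs4 lie to the right of 0 for bicuculline minus DMSO (1.42 and 1.07) and to the left for NMP peptides plus APV minus NMP peptides (-1.18 and -1.02), where Rgs17 lies at 0.51.

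Blocking NMDA receptors while the peptides were given was compared with the peptides alone. Rgs2 had 3.31, 3.53 and 3.37 with NMP peptides plus APV, against 4.67, 4.70 and 4.38 with NMP peptides. The groups were far apart, and the APV libraries of Rgs2 also lay below every one of the other 11 libraries, whose lowest was 3.92. Rgs2 was 2.27-fold lower, with a difference of -1.18 (SE 0.18, limma adjusted p = 0.00513). Rgs4 had 5.26, 5.37 and 5.28 with APV, against 6.29, 6.51 and 6.19 without it. Its APV libraries likewise lay below all 11 others, whose lowest was 5.80, and the difference was -1.02 (SE 0.19), or 2.03-fold lower (limma adjusted p = 0.0156). Rgs17, the RZ member with the higher level, moved the other way. It had 3.86, 3.76 and 3.88 with APV, against 3.23, 3.48 and 3.24 with NMP peptides alone, and the highest of the 11 other libraries had 3.50. The difference was 0.51 (SE 0.10), or 1.43-fold higher (limma adjusted p = 0.016). So 2 of 10 members were called lower and 1 higher, where the background was 0.883% lower and 0.552% higher. Groups that do not overlap made up 12.2% of all genes with the APV libraries below and 9.62% with them above. Those shares are for APV against NMP peptides alone. The share of genes whose APV libraries lie apart from all 11 others was not computed, so that separation has no background here. The median over the 10 members was -0.09, beside -0.01 over all genes tested. Of the 4 index genes, limma called Npas4 (-3.35) and Fos (-1.42) lower here. It did not call Arc (-1.35, adjusted p = 0.0708) or Egr1 (-0.43, adjusted p = 0.435). With NMP peptides plus APV against DMSO, 0 of the 4 were called. Npas4 lay at -1.27 there, and Fos, Arc and Egr1 at 0.46, 0.29 and 0.73.

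The call of Rgs2 between NMP peptides plus APV and NMP peptides was kept without each single library, with a limma adjusted p of 0.000824 to 0.0305. Rgs4 lost its call without NMP peptides replicate 1 or 2 (adjusted p = 0.0524 and 0.0648) and without NMP peptides plus APV replicate 1 or 3 (0.0704 and 0.0715), with differences of -1.10 to -0.93 over all libraries left out. Rgs17 lost its call without NMP peptides replicate 1 or 3 (limma adjusted p = 0.0758 and 0.0686), without NMP peptides plus APV replicate 1 or 3 (0.0756 and 0.0799) and without the 4 libraries with high Gfap (0.47, adjusted p = 0.0926). Without those 4, Rgs2 differed by -1.28 (limma adjusted p = 0.00174) and Rgs4 by -1.10 (adjusted p = 0.0013). Summed signals of cell type markers also differed in the APV group. The 7 astrocyte markers summed to 294.5 to 321.7 with APV, against 246.5 to 293.3 in the other groups. The 6 inhibitory neuron markers summed to 449.5 to 471.7, against 492.5 to 578.0. Such sums follow their most abundant genes, and single markers did not all go the same way. Set against NMP peptides, 6 of 7 astrocyte markers were above 0 with APV, the lowest at -0.43, and 2 of 6 inhibitory neuron markers were above 0. All 7 tested oligodendrocyte lineage markers and 5 of 6 excitatory neuron markers were above 0 there. Between NMP peptides plus APV and NMP peptides, limma called none of the 7 astrocyte and 6 inhibitory neuron markers, with 3 and 2 of them at an unadjusted p under 0.05. At that threshold were also 2 of 6 excitatory neuron and 2 of 7 oligodendrocyte lineage markers, and 0 of 5 general neuronal markers. The background in this comparison was 15.8% of all genes tested. Gad1, the gene of a GABA-synthesising enzyme, differed by -0.39 (SE 0.11, limma adjusted p = 0.125) there and was called higher with bicuculline than with NMP peptides plus APV (0.45, SE 0.11, adjusted p = 0.0449). Of the cell type markers tested, it was the only one called in any of the 10 comparisons. The smallest p of the other marker lists were those of Neurod6 among excitatory neuron markers (0.35, SE 0.10, limma adjusted p = 0.0798), Slc1a2 among astrocyte markers (-0.38, SE 0.14, adjusted p = 0.158) and Map2 among general neuronal markers (-0.36, SE 0.14, adjusted p = 0.197), all for bicuculline minus NMP peptides plus APV. Among oligodendrocyte lineage markers it was that of Olig2 (-0.26, SE 0.11, limma adjusted p = 0.971, NMP peptides minus DMSO). The part of these markers in the differences of Rgs2, Rgs4 and Rgs17 was not tested.

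The same APV libraries were set against the control groups. Rgs2 differed from PK-cleaved NMP peptides by -0.73 (SE 0.18, limma adjusted p = 0.0658) and from DMSO by -0.72 (SE 0.20, adjusted p = 0.16). Rgs4 differed by -0.73 (SE 0.19, limma adjusted p = 0.0818) and -0.78 (SE 0.21, adjusted p = 0.148). Neither passed the threshold, although the libraries overlapped in neither gene. Among all genes, 11.4% had the APV libraries below those with PK-cleaved NMP peptides and 8.84% above, and 21% had them below those with DMSO and 8.86% above. Rgs17 was higher with APV than with PK-cleaved NMP peptides, by 0.44 (SE 0.10) or 1.36-fold (limma adjusted p = 0.0396). Its difference from DMSO was 0.46 (SE 0.11, adjusted p = 0.0835), with DMSO libraries at 3.36 and 3.39. Against PK-cleaved NMP peptides 1 member was called higher and 0 lower (background 0.607% and 0.781%), and against DMSO limma called 0, with 5 members at an unadjusted p under 0.05 (background 0.175% called higher, 0.45% lower and 11.5% unadjusted). Rgs7, whose protein pairs with Gnb5, differed from DMSO by -0.29 (SE 0.12, limma adjusted p = 0.346) and from PK-cleaved NMP peptides by -0.29 (SE 0.10, adjusted p = 0.205). Rgs8 differed from DMSO by -0.30 (SE 0.11, limma adjusted p = 0.305), from PK-cleaved NMP peptides by -0.26 (SE 0.10, adjusted p = 0.219) and from NMP peptides by -0.23 (SE 0.10, adjusted p = 0.277). Between bicuculline and NMP peptides plus APV, Rgs8 differed by 0.27 (SE 0.10, limma adjusted p = 0.166). Every bicuculline library of Rgs8 lay above the APV libraries, as in 15.1% of all genes tested. All of these comparisons share the 3 APV libraries and are not independent of each other.

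These values near the threshold moved with single libraries. Rgs17 against PK-cleaved NMP peptides kept its limma call without bicuculline replicate 1, 2 or 3, NMP peptides replicate 1 or 2, or PK-cleaved NMP peptides replicate 2. It lost the call without any of the other 8 libraries (adjusted p = 0.05 to 0.146), without the 4 with high Gfap (0.38, adjusted p = 0.192), with a block for the replicate number (0.0757) and with only the 2 compared groups in the fit (0.071). Rgs2 and Rgs4 were called lower there without bicuculline replicate 2 (adjusted p = 0.0232 and 0.0191), which enters that fit through the shared estimate of the spread, without bicuculline replicate 3 (0.0209 and 0.0387), and without the 4 with high Gfap (0.0308 and 0.0151). With only the 2 compared groups in the fit, which ended the call of Rgs17, both were also called lower (limma adjusted p = 0.0297 and 0.0223), as they were with array weights (0.0253 and 0.0372). Against DMSO, Rgs4 was called lower without bicuculline replicate 2 (limma adjusted p = 0.0389) and without the 4 with high Gfap (adjusted p = 0.0259).

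Bicuculline was also set against the other treatments. Against PK-cleaved NMP peptides, Rgs2 was higher by 1.41 (SE 0.18), or 2.66-fold (limma adjusted p = 0.000633), and Rgs4 by 1.11 (SE 0.19), or 2.16-fold (adjusted p = 0.0101). These were 2 of 10 members called higher and 0 lower (background 0.533% called higher and 4.16% with libraries above). Rgs4 lost this call without bicuculline replicate 1 (adjusted p = 0.0555) or PK-cleaved NMP peptides replicate 3 (0.075), and with only the 2 compared groups in the fit (0.0789). Against NMP peptides, Rgs2 differed by 0.96 (SE 0.18, limma adjusted p = 0.0537) and Rgs4 by 0.82 (SE 0.19, adjusted p = 0.193). Here limma called 0 members, with both genes at an unadjusted p under 0.05 (background 0.175% called higher, 2.12% unadjusted), although every bicuculline library lay above every peptide library in both, as in 3.29% of all genes. Without bicuculline replicate 2 both were called (1.18 and 1.08, limma adjusted p = 0.00484 and 0.00547), as they were without the 4 libraries with high Gfap (adjusted p = 0.018 and 0.0061). Against NMP peptides plus APV, Rgs2 was higher by 2.14 (SE 0.18), or 4.41-fold (limma adjusted p = 1.04e-05), Rgs4 by 1.84 (SE 0.19), or 3.59-fold (adjusted p = 5.48e-05), and Rgs17 was 1.42-fold lower, with a difference of -0.51 (SE 0.10, adjusted p = 0.0075). That made 2 of 10 members higher and 1 lower, where the background was 2.38% and 0.947%, with 15.1% and 10.5% of all genes not overlapping in those directions. All 3 calls held without each single library. Rgs17 lost its call without the 4 with high Gfap (-0.44, limma adjusted p = 0.0733).

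Rgs2 and Rgs4 followed each other from library to library. The level of Rgs4 minus that of Rgs2 lay between 1.53 and 2.05 in the 14 libraries, while the levels themselves ranged over 2.70 for Rgs2 and 2.32 for Rgs4. By group, this gap averaged 1.60 ± 0.09 (SD, n = 3) with bicuculline, 1.90 ± 0.06 (SD, n = 3) with NMP peptides plus APV, 1.75 ± 0.11 (SD, n = 3) with NMP peptides, 1.90 ± 0.13 (SD, n = 3) with PK-cleaved NMP peptides and 1.96 ± 0.13 (SD, n = 2) with DMSO. The bicuculline libraries had 1.53 to 1.71, below those with PK-cleaved NMP peptides (1.79 to 2.04) and with DMSO (1.87 to 2.05), and this difference of gaps was not tested. Over all genes tested, and with each gene centred on its own mean, Rgs4 was the gene whose values lay nearest to those of Rgs2, with a root mean square difference of 0.15 on the log2 scale over the 14 libraries. Predicted gene models and genes with only a clone or accession name were left out of the ranks after it. Next came Itprip (0.18), which encodes an inositol trisphosphate receptor interacting protein, and Otud1 (0.21), a deubiquitinase gene. Then came Trib1 (0.21), a pseudokinase gene, and Dusp5 (0.23), a MAP kinase phosphatase gene. Their means with bicuculline, NMP peptides plus APV and DMSO were 2.06, 0.15 and 0.80 for Itprip, and 2.76, 0.81 and 1.30 for Dusp5, at lower levels. These genes were picked for their nearness to Rgs2 in the same 14 libraries, so a like order of their means follows from that choice. The other members lay at 0.69 (Rgs10) to 0.91 (Rgs17) from Rgs2. Libraries of a group share their treatment, so this likeness is a description.

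The remaining R7 and R12 members and Rgs20 showed no called difference in any of the 10 comparisons. Rgs6 had group means of 2.49 to 2.69, Rgs7 of 4.16 to 4.46, Rgs10 of 3.17 to 3.32, Rgs12 of 2.51 to 2.64, Rgs14 of 2.38 to 2.60 and Rgs20 of 2.27 to 2.43. Within a group, the libraries of these genes varied with an SD of 0.09 (Rgs12) to 0.21 (Rgs14) on the log2 scale, beside 0.26 for Rgs2, 0.28 for Rgs4 and 0.12 for Rgs17. Rgs14, which in the brain is known for its enrichment in hippocampal area CA2, had the widest interval of the 6 between bicuculline and DMSO, at -0.33 to 0.41. That interval is not adjusted for the number of genes tested, so even a change somewhat beyond it in Rgs14 could have gone uncalled.

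Genes that act beside these regulators were read from lists. Over all genes tested and the 10 comparisons, 7.5% of differences had an unadjusted p under 0.05. None of 9 tested genes for other RGS-domain proteins was called with limma in any of the 10 comparisons, with 7 of 90 differences at an unadjusted p under 0.05. The smallest p among them was that of Rgs16, another R4 member, at 0.70 (SE 0.19) between bicuculline and NMP peptides plus APV (adjusted p = 0.0659). None of 3 tested partners and anchors of the R7 proteins was called, with 0 of 30 at an unadjusted p under 0.05. The smallest p was that of Gpr158, an orphan receptor that binds RGS7 (0.33, SE 0.29, limma adjusted p = 0.607, NMP peptides plus APV minus NMP peptides). None of 11 G alpha genes was called and 0 of 110 differences passed unadjusted, with Gnaq nearest (0.19, SE 0.09, limma adjusted p = 0.324, in the same comparison). The differences of G alpha genes lay between -0.22 and 0.20 in all comparisons.

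Among 11 G beta and gamma genes, Gnb4, a G beta subunit gene, was lower with NMP peptides plus APV than with NMP peptides (-0.42, SE 0.06), PK-cleaved NMP peptides (-0.43, SE 0.06) and DMSO (-0.47, SE 0.06), with limma adjusted p-values of 0.00255, 0.00271 and 0.00336. It was higher with bicuculline than with NMP peptides plus APV by 0.45 (SE 0.06). The other 10 were not called in any comparison. Of all genes tested, limma called 0.883% lower with NMP peptides plus APV than with NMP peptides, 0.781% against PK-cleaved NMP peptides and 0.45% against DMSO. Between bicuculline and NMP peptides plus APV it called 2.38% higher. Of 10 genes for receptor kinases, arrestins and related G alpha binding proteins, limma called 0, with 4 of 100 differences at an unadjusted p under 0.05 and Ric8b, a G alpha chaperone gene, at the smallest p (-0.26, SE 0.09, adjusted p = 0.683, bicuculline minus PK-cleaved NMP peptides). Of 10 Gq/11-coupled receptor genes limma called 0, with 16 of 100 at an unadjusted p under 0.05. All 16 were in the comparisons with the APV group, 2 of 10 against DMSO (background 11.5%), 4 of 10 against NMP peptides (15.8%), 5 of 10 against PK-cleaved NMP peptides (15.6%) and 5 of 10 between bicuculline and NMP peptides plus APV (18.7%). The smallest p was that of the neurotensin receptor gene Ntsr1 (0.30, SE 0.07, adjusted p = 0.0639, NMP peptides plus APV minus NMP peptides).

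Of 18 Gi/o-coupled receptor genes, 2 fell and 1 rose with NMP peptides plus APV against NMP peptides, where 0.883% of all genes tested were called lower and 0.552% higher. Grm2, a presynaptic glutamate receptor gene, had a difference of -0.85 (SE 0.11, limma adjusted p = 0.00196), Npy1r, a neuropeptide Y receptor gene, of -0.54 (SE 0.11, adjusted p = 0.0276), and Oprl1, the nociceptin receptor gene, of 0.36 (SE 0.08, adjusted p = 0.0348). Grm2 and Npy1r were also lower with NMP peptides plus APV than with DMSO (-0.81 and -0.76) and PK-cleaved NMP peptides (-0.85 and -0.63). The background called lower was 0.45% against DMSO and 0.781% against PK-cleaved NMP peptides. Between bicuculline and NMP peptides plus APV, 4 were higher, Sstr2 (1.10), Grm2 (0.85), Sstr1 (0.61) and Npy1r (0.52), and Oprl1 was lower (-0.41), where 2.38% of all genes tested were called higher and 0.947% lower. Sstr1 and Sstr2 encode somatostatin receptors. In the other 6 comparisons 0 of 18 were called with limma, and up to 3 passed unadjusted. With bicuculline, 3 of 18 passed unadjusted against DMSO (background 3.14%), 3 against NMP peptides (2.12%) and 2 against PK-cleaved NMP peptides (3.38%). Sstr2 had the smallest p against DMSO (0.95, SE 0.24, limma adjusted p = 0.205). Of 17 effector genes, Adcy8, a calcium-stimulated adenylyl cyclase gene, was lower with NMP peptides plus APV than with NMP peptides (-0.71, SE 0.10), PK-cleaved NMP peptides (-0.66, SE 0.10) and DMSO (-0.76, SE 0.11), with limma adjusted p-values of 0.00255, 0.00382 and 0.00524. It was higher with bicuculline than with NMP peptides plus APV by 0.75 (SE 0.10). The other 16 effector genes were not called in any comparison. The shares of all genes tested called in the comparisons of Adcy8 are those given beside Gnb4. As in Rgs2 and Rgs4, the APV libraries of Gnb4, Grm2, Npy1r and Adcy8 lay below the libraries they were compared with. So did those of 12.2% of all genes tested against NMP peptides, 11.4% against PK-cleaved NMP peptides, 21% against DMSO and 15.1% against bicuculline.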

How the data were processed

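Per the labels' protocols, paired reads of 100 bases were sequenced from ribosome-depleted RNA. The deposited values are log signals per gene, read as log2, a unit recorded as other because missing values are written as dashes. No label states the base. All libraries share a median of 2.19, as quantile normalisation leaves them, so whole reads could not be recovered. Base 2 was inferred from exon lengths: the antilogged values times kilobases gave library sums of 1180000 to 1270000, and base e gave 8360000 to 9080000. Per the submitters' processing notes the build was GRCm38.p6. The aligner, the counter and the annotation were not given in the sources used here.

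Columns were assigned to samples by the names in the labels. The lowest 40% of features by mean were dropped, leaving 10877 genes. A linear model of group means over the 14 libraries was fitted in R 4.3.3 by limma 3.58.1 (moderated variances with a trend on the mean), and the procedure was tested on simulated data. There were 10 comparisons, each with two-sided p-values adjusted over its tested genes by Benjamini-Hochberg, and genes under 0.05 were called. Comparisons that share a group are not independent. Members, lists and motifs were chosen with earlier results of these data known. All 10 members are named, with values for those called or at an unadjusted p under 0.05, and from each list the genes called or the one with the smallest p.

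Same-numbered libraries of NMP peptides and PK-cleaved NMP peptides deviated together from their group means (correlations across genes of 0.51, 0.499 and 0.613), which is seen in the data and not stated by the labels. As alternatives, the filter was removed or set to 60%, libraries were centred on the median, the replicate number was added as a block, the fit was limited to the compared groups, the variance trend was dropped, array weights were used, and each library, or the 4 highest in Gfap, was left out.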

Additional observations from a re-analysis of the deposited data

How the results depend on the processing

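None of the 26 member differences with an unadjusted p under 0.05 changed sign in the 573 values recomputed under other settings. Rgs14 and Rgs20 were dropped by the 60% filter. The count of 3 members called among the 5 groups stayed at 2 to 3 under every setting, and the counts of 0 for NMP peptides against DMSO and against PK-cleaved NMP peptides and for PK-cleaved NMP peptides against DMSO stayed at 0. For bicuculline against DMSO (2 members) the count was 1 with the replicate block, 1 without the variance trend and 0 with only the compared groups, and 0 to 2 with 1 library left out. For NMP peptides plus APV against PK-cleaved NMP peptides (1 member) it was 0 with the replicate block, 3 with array weights, 2 with only the compared groups and 2 when the 4 libraries highest in Gfap were left out, and 0 to 3 with 1 library left out. For bicuculline against NMP peptides (0 members) it was 2 with array weights, 1 when 60% of features were dropped and 2 without those 4 libraries, and 0 to 2 with 1 library left out. For bicuculline against PK-cleaved NMP peptides (2 members) it was 1 with only the compared groups and 1 to 2 with 1 library left out. For NMP peptides plus APV it was 1 against DMSO without those 4 libraries and 0 to 1 with 1 library left out, and 1 to 3 against NMP peptides with 1 library left out. For bicuculline against NMP peptides plus APV it was 3 without each library. The cause was not tested. The replicate block changed no other count by over 1.5 times. Apart from NMP peptides and PK-cleaved NMP peptides, same-numbered libraries of groups with 3 libraries did not all correlate above 0.1, so no pairing was seen there. With DMSO there were only 2 pairs, too few to decide whether the numbers pair the samples. For replicates 2 and 3, DMSO correlated at 0.542 and 0.169 with bicuculline, and at 0.305 and 0.349 with the APV group. The values were -0.341 and -0.48 with NMP peptides, and -0.449 and -0.413 with the PK-cleaved ones. A lone DMSO library was taken to vary as libraries of other groups do. Read depth is unknown, so no limit from counting can be given, and groups of 2 or 3 limit the precision.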

Other observations

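Other genes of the family lay below the filter on low values or lacked values. Rgs5, a marker of mural cells, had log2 signals of -4.59 to -3.19 with NMP peptides plus APV, against -2.66 and -2.19 with DMSO, and differed from DMSO by -1.51 (SE 0.50) in a fit without the filter (limma adjusted p = 0.26). Its APV libraries lay below both DMSO libraries, as in 21% of all genes tested, while bicuculline replicate 3 (-3.69) and NMP peptides replicate 3 (-3.55) lay within the range of the APV libraries. Rgs13, another R4 member, had -1.07 to -0.78 with NMP peptides plus APV, against -0.49 to 0.04 with PK-cleaved NMP peptides, and the difference was -0.67 (SE 0.20, limma adjusted p = 0.146 without the filter). Its APV libraries lay below the cleaved peptide libraries, as in 11.4% of all genes tested, while NMP peptides replicate 3 (-0.79) lay within their range. For each gene this is the comparison with the smallest p. Neither gene was called in any of the 10 comparisons. Rgs22 had a value in 13 of 14 libraries, Rgs1 in 4, Rgs18 in 1 and Rgs21 in 0, and these 4 genes were not tested.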
